A study of Caenorhabditis elegans with 39 samples.

Results

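Levels of microRNAs (miRNAs) were compared between Alg1E larvae and N2 larvae of Caenorhabditis elegans over 5 successive hours, at 26, 27, 28, 29 and 30 h after plating. There was 1 library per genotype and hour, so 10 of the study's 39 libraries entered the comparison, chosen by genotype and hour alone, with all 437 miRNA entries of the count table. Alg1E is labelled as a genotype in the N2 background, and the series' design text calls the Alg1 genotypes mutants. The title concerns phosphorylation of the Argonaute protein ALG-1 and its binding of miRNAs, but the labels do not spell out the letter E or give an allele. N2 is the standard laboratory wild type strain, labelled WT. Larvae of both genotypes were plated as synchronized first-stage (L1) animals, grown at 25 degrees and harvested whole, and small RNA libraries were made from their total RNA. The labels give no number of animals, culture, clone or batch, so the p-values rest on the spread among libraries of successive hours, and that spread may be technical. Whether libraries of neighbouring hours vary independently was not tested.

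A miRNA is cut from a hairpin-shaped precursor as a short duplex of a 5p strand and a 3p strand. An Argonaute such as ALG-1 takes up the duplex, keeps 1 strand as the guide that finds target mRNAs, and loses the other, the passenger strand. Among the best known guides in worms are lin-4, let-7 and the let-7 relatives, the heterochronic miRNAs, which time the passage from one larval stage to the next. Here the arm of a hairpin with fewer reads in N2 at 18 to 25 h, hours outside the comparison, is called the minor arm and the other the major arm.

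The 5 Alg1E libraries held 1777025 to 4668890 miRNA reads and the 5 N2 libraries 1751599 to 3249275. All levels are in CPM (counts-per-million), scaled by TMM, the trimmed mean of M-values, a method built for data in which the larger part of the features is unchanged. Reads outside any annotated miRNA took 35.8% to 67.0% in Alg1E and 35.5% to 54.1% in N2. Of the 437 entries, 55 had no read in these 10 libraries, 243 passed the filter on low counts and were tested, and the 194 others took at most 0.0192% of the reads of any library. The Alg1E library of 27 h stood apart from its neighbours. A chi-square per degree of freedom over miRNAs was 1140.1 and 1572 for its 2 pairs with the hours beside it, against 51.1 to 197 for the 6 other neighbouring pairs of 1 genotype. Counts of calls are therefore also given without that hour. The table holds miRNAs alone, so the alg-1 transcript could not be looked at as a check of the labels.

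Most miRNAs that could be tested differed between Alg1E and N2 at these hours. edgeR's quasi-likelihood test, with hour as a factor and Benjamini-Hochberg adjustment, called 161 of 243 at an adjusted p under 0.05, which is 66.3%. Of these, 76 were higher in Alg1E (31.3%) and 85 lower (35%). Differences were large, with 62 of the higher and 56 of the lower beyond 2-fold, and 40 and 16 beyond 4-fold. The direction was the same at 5 of 5 hours for 75 of the higher and 75 of the lower. The ranges of the 5 Alg1E and the 5 N2 levels did not overlap for 125 miRNAs (51.4%). That share is to be set beside each miRNA said further on not to overlap. Leaving out both libraries of 27 h gave 169 calls, 89 higher and 80 lower, of which 151 were also called with it.

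The split between higher and lower depends on how libraries are scaled. With total counts the median of all tested miRNAs shifted by 0.30 on the log2 scale and the calls became 86 higher and 62 lower. With TMM factors from major arms and miRNAs listed with 1 arm it moved by 0.47 (101 higher, 50 lower), and with factors from the major arms of hairpins listed with both arms by 0.63 (116 higher, 45 lower). A modest decrease is thus a decrease relative to the TMM baseline. The ratio of the arms of a hairpin, given further on, is taken within a library and does not depend on this choice.

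Direction followed the arm. Among the 96 minor arms tested, 66 were higher in Alg1E, 9 lower and 21 not called, with a median log2 difference of 1.47. Among the 132 major arms, 8 were higher, 70 lower and 54 not called, with a median of -0.59 that became 0.040 with factors from the major arms of hairpins listed with both arms. The 15 miRNAs listed with 1 arm held 2 higher and 6 lower. The median over all 243 was -0.13. Under the 4 other scalings the minor arms held 68 to 79 higher and 6 to 9 lower, and the major arms 11 to 33 higher and 36 to 67 lower. Of the minor arms on the 5p side 41 of 61 were higher, and of those on the 3p side 25 of 35. The arms tested were 96 of 185 minor arms and 132 of 185 major arms. The filter asked for enough reads in about as many libraries as 1 genotype holds. A minor arm scarce in N2 could thus pass through Alg1E libraries alone, so these counts may favour arms high in Alg1E.

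**Figure D1:**
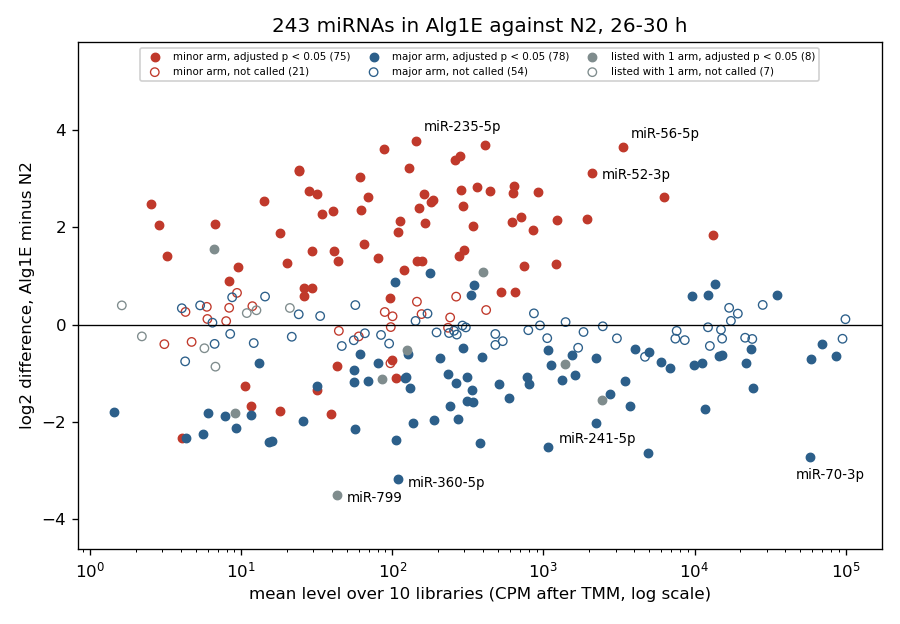
Log2 difference between Alg1E and N2 at 26 to 30 h (y axis, Alg1E minus N2) against the mean level over the 10 libraries (x axis, CPM after TMM, log scale) for the 243 miRNAs tested, filled where edgeR's adjusted p was under 0.05. Of the 96 minor arms (red) 66 lie above 0 and filled, and of the 132 major arms (blue) 70 lie below 0 and filled.

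For the 96 hairpins with both arms tested, the arms were also read together, under TMM. In 27 the minor arm was higher and the major arm lower, and in 34 the minor arm was higher while the major arm was not called. Both arms were higher in 5 hairpins and both lower in 7. In 12 the major arm alone was lower, in 1 it alone was higher, and in 2 the minor arm alone was lower. In no hairpin was the minor arm lower and the major arm higher, and in 8 neither arm was called.

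The share of minor arms was taken among the reads of both arms of the 96 hairpins with both arms tested. It was 8.63, 7.94, 8.09, 7.46 and 7.22% in Alg1E at 26, 27, 28, 29 and 30 h, against 1.62, 1.61, 1.60, 1.58 and 1.54% in N2. The lowest Alg1E library lay far above the highest N2 library. The means were 7.87% ± 0.553 in Alg1E and 1.59% ± 0.0312 in N2 (SD over the 5 hours), a ratio of 4.95. In Alg1A, the other Alg1 genotype of the study, the share at the same hours was 1.87% ± 0.122 (SD, n = 5), which is 1.18 times that of N2.

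**Figure D2:**
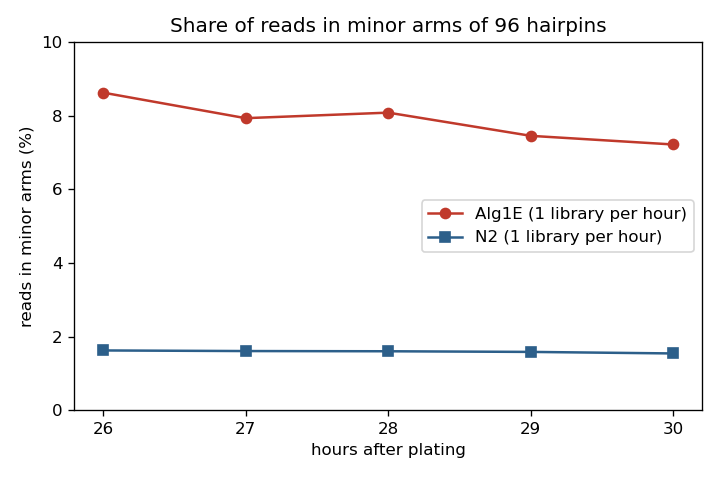
Minor arms as percent of the reads of both arms of 96 hairpins (y axis) at each hour after plating (x axis), 1 point per library. The Alg1E libraries sit between 7.22% and 8.63% and the N2 libraries between 1.54% and 1.62%.

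The balance of the arms was tested hairpin by hairpin with limma on the minor to major arm ratio on the log2 scale, for the 94 hairpins whose arms each averaged 10 reads or more. That average was over both genotypes, so a minor arm scarce in N2 could enter through its Alg1E reads alone. At an adjusted p under 0.05 the ratio was higher in Alg1E for 73 (77.7%) and lower for 1 (1.06%). The median difference was 2.004 on the log2 scale, a 4.01-fold higher ratio. Hour by hour from 26 to 30 h the median difference was 2.33, 2.07, 1.895, 1.80 and 1.59, and the ratio was higher in Alg1E for 75 to 87 of the 94 hairpins. These medians became smaller over the 5 hours. At 18 to 25 h, in the libraries before this window, they lay between 1.67 and 2.25 with no steady course. Leaving out each hour in turn gave 68 to 76 hairpins with a higher ratio and 1 with a lower.

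The miR-70 hairpin sits within a pmp-5 intron, in the same orientation (chromosome V, 6665536 to 6665635, - strand, WBcel235). Its minor arm amounted to 5.28, 11.0, 8.50, 5.91 and 4.51% of its major arm in Alg1E, against 0.249, 0.219, 0.199, 0.246 and 0.260% in N2. The groups were far apart at every hour, and the ratio was 28.5-fold higher (log2 4.84, SE 0.31, limma adjusted p = 4.35e-06). The miR-87 hairpin sits within a kup-1 intron, also in the same orientation (V, 12038688 to 12038781, - strand). Its minor arm stood at 40.3, 129.8, 41.6, 27.8 and 23.8% of the major arm in Alg1E and at 2.35, 2.51, 2.17, 1.92 and 1.56% in N2, a log2 difference of 4.36 (SE 0.32). The 27 h library, in which the minor arm exceeded the major one, was the highest of the 5.

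miR-60, a hairpin known for its expression in the intestine, lies on II from 6328702 to 6328799 (- strand), outside protein-coding genes. Its minor arm was scarce in both genotypes, at 0.588, 1.26, 0.827, 0.727 and 0.645% of the major arm in Alg1E and 0.0429, 0.0439, 0.0319, 0.0469 and 0.0262% in N2, yet the log2 difference was 4.35 (SE 0.27). miR-73, on X from 2368765 to 2368863 (+ strand) and 179 bases from mir-74, had a minor arm at 32.1, 23.1, 57.4, 60.2 and 38.3% of the major arm in Alg1E and at 2.68, 1.95, 1.63, 2.91 and 3.35% in N2. For both hairpins all Alg1E libraries lay above all N2 libraries. Both were chosen for the size of their rise in ratio, and the ratio was called higher for 73 of the 94 hairpins tested.

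In 4 hairpins the minor arm overtook the major arm on average in Alg1E and not in N2. For miR-235, which in worms acts in the arrest of L1 larvae without food, the minor arm was at 90.6, 93.5, 122, 134 and 115% of the major arm in Alg1E and 8.98, 6.57, 6.08, 4.43 and 8.16% in N2. For miR-71, a miRNA that promotes long life and stress resistance, it was at 123, 72.2, 134, 125 and 91.7% in Alg1E and 44.8, 34.0, 21.7, 14.0 and 18.9% in N2, with the lowest N2 values at 28 to 30 h. For miR-240 the means were 102% ± 9.58 in Alg1E and 23.7% ± 5.02 in N2 (SD, n = 5). In these 3 hairpins, which were chosen for their high ratio in Alg1E, the ranges did not overlap. The ratio was called higher for 73 of all 94 hairpins tested, and how many of the 94 had ranges without overlap was not counted.

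The fourth was miR-360, at 681, 176, 66.0, 153 and 520.0% in Alg1E and 3.70, 1.21, 5.78, 2.36 and 1.60% in N2, the largest log2 difference of all hairpins tested (6.42, SE 0.61). Its major arm, miR-360-5p, was unsteady throughout the series, so the size of this ratio is loosely set. In CPM of total miRNA reads, without TMM, miR-360-5p ranged from 9.91 to 540 in Alg1E and from 35.4 to 543 in N2 at 18 to 25 h, and from 5.63 to 92.3 in Alg1E and from 102 to 250.1 in N2 at 26 to 30 h. Its medians were 195.8 in Alg1E and 64.3 in N2 at 18 to 25 h, against 22.3 and 196.2 at 26 to 30 h. The direction by medians was thus opposite at the earlier hours. The 1 hairpin with a lower ratio was miR-1020, a mirtron, whose precursor is an intron cut out by splicing. Its minor arm was at 3.30, 4.71, 1.85, 6.53 and 3.26% of the major arm in Alg1E and 10.9, 15.5, 10.7, 12.9 and 12.02% in N2 (log2 -1.73, SE 0.28). This minor arm, miR-1020-5p, was scarce, with a mean of 11.6 CPM over the 10 libraries.

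**Figure D3:**
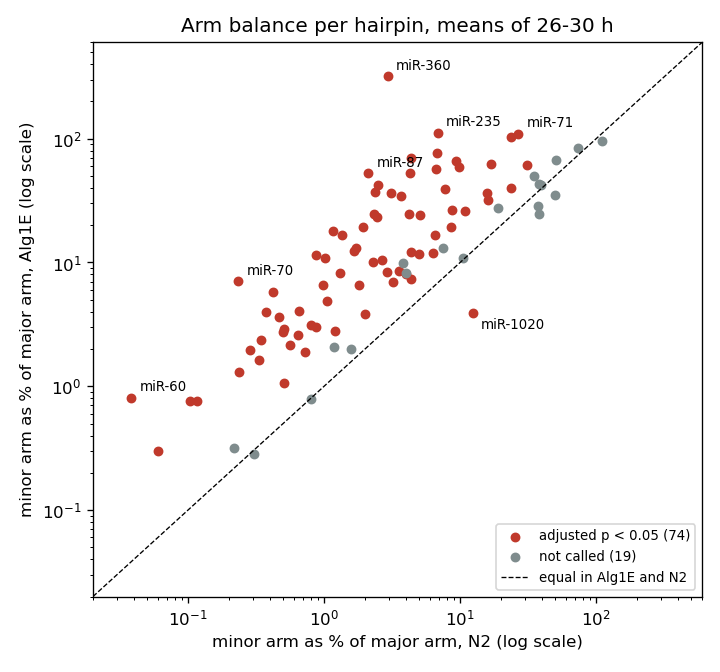
Minor arm as percent of the major arm, mean of the 5 hours, in Alg1E (y axis, log scale) against N2 (x axis, log scale), 1 point per hairpin, red where limma's adjusted p was under 0.05. The dashed line marks equal values, and 73 hairpins called higher lie above it while miR-1020 lies below. miR-358 is left out because its major arm had no read in 1 Alg1E library.

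The 10 largest rises among miRNAs with a mean of at least 10 CPM were all minor arms. The hairpin of miR-56-5p overlaps an F09A5.3 intron in the opposite orientation (X, 13144691 to 13144787, - strand). It was at 5031, 10036, 5987, 5109.6 and 4879 CPM in Alg1E at 26 to 30 h, against 434, 449, 457, 516 and 512 CPM in N2. The 27 h library was the highest of the Alg1E libraries, and the groups did not overlap. The rise was 12.6-fold (log2 3.65, SE 0.23, edgeR adjusted p = 2.55e-06), while the major arm miR-56-3p was not called (log2 0.078, edgeR adjusted p = 0.761). With the scalings from major arms miR-56-3p was higher too (0.55 and 0.705).

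miR-52-3p is the minor arm of a hairpin on IV from 14034008 to 14034107 (+ strand), outside protein-coding genes, whose major arm is among the most abundant miRNAs. It was at 5491, 2115, 3351, 3918 and 4043 CPM in Alg1E and 295, 355, 424, 551 and 490.2 CPM in N2 (log2 3.12, SE 0.26, edgeR adjusted p = 1.04e-05). Its major arm miR-52-5p was lower, at 80412, 78928, 54940.0, 59718 and 61454 CPM in Alg1E and 119617, 116229, 109196, 80606 and 100430.0 CPM in N2 (log2 -0.65, edgeR adjusted p = 0.00277). The arms of this hairpin thus moved in opposite directions, without overlap between the groups in either. The call of the major arm was lost with both scalings from major arms, at log2 -0.18 and -0.024.

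miR-235-5p showed the largest log2 difference, 3.78 (SE 0.39, edgeR adjusted p = 2.74e-05), at 201, 271, 238, 334 and 286 CPM in Alg1E and 36.8, 25.3, 19.2, 8.94 and 12.4 CPM in N2. It held its level in Alg1E while the N2 values were lowest at 29 and 30 h. miR-87-5p was at 913, 1171, 652, 542 and 513 CPM in Alg1E and 65.7, 68.1, 56.4, 50.7 and 42.9 CPM in N2 (log2 3.69, edgeR adjusted p = 2.55e-06). miR-73-5p (3.60), miR-228-3p (3.47), miR-237-3p (3.38), miR-72-3p (3.22), miR-360-3p (3.17) and miR-39-5p (3.16) complete the 10. Each was without overlap between the groups, which the choice of the largest rises favours, as were 125 of all 243 miRNAs tested (51.4%). The floor of 10 CPM was a mean over both genotypes, which high Alg1E levels alone can lift. All 10 were called under each of the 16 alternative settings run. miR-235-5p varied most among them, with 2.69 against N2 larvae 2 h younger and 4.42 with factors from the major arms of hairpins listed with both arms.

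The largest falls were mostly major arms. miR-70-3p, in N2 among the most abundant miRNAs of these larvae, was at 16722, 10254, 10989, 19218 and 20906 CPM in Alg1E, against 92743, 105997, 112697, 100186 and 87234 CPM in N2. Every Alg1E library lay below every N2 library, and the level was 6.62-fold lower (log2 -2.73, SE 0.23, edgeR adjusted p = 1.12e-05). Its minor arm miR-70-5p was higher, at 883 to 1136 CPM in Alg1E and 224 to 246 CPM in N2 (log2 2.11, edgeR adjusted p = 1.03e-05).

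miR-799, listed with 1 arm and located on X from 8600643 to 8600735 (- strand) outside protein-coding genes, was at 8.98, 11.5, 3.09, 7.06 and 5.25 CPM in Alg1E and 88.6, 79.5, 93.2, 56.6 and 74.6 CPM in N2. It had the largest fall, 11.4-fold (log2 -3.51, SE 0.33, edgeR adjusted p = 1.69e-05), with no overlap. miR-247-3p was at 136, 41.3, 136, 159.9 and 142 CPM in Alg1E and 782, 806, 698, 411 and 497 CPM in N2 (log2 -2.44, edgeR adjusted p = 0.000442). This hairpin, on X from 4756971 to 4757068 (+ strand) and 40 bases from mir-797, is 1 of the 7 with both arms lower, the minor arm miR-247-5p having a log2 difference of -1.76. miR-8196b-3p was at 6.41, 5.34, 3.09, 5.55 and 4.20 CPM in Alg1E and 21.1, 26.4, 32.9, 23.4 and 25.5 CPM in N2 (log2 -2.40, edgeR adjusted p = 8.41e-05).

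miR-360-5p, at 8.98, 21.4, 75.0, 26.7 and 5.25 CPM in Alg1E and 222, 236, 118, 105 and 272 CPM in N2, had a log2 difference of -3.17 (edgeR adjusted p = 0.00227). Its spread over the series is given above with the arm ratio. miR-59-3p, miR-358-3p, miR-5592-3p, miR-357-3p and miR-241-5p complete the 10 largest falls and are taken up below with the late-rising and the heterochronic miRNAs.

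The 5 miRNAs with most reads over the 10 libraries, miR-52-5p among them, differed by less than 2-fold. miR-1-3p, the muscle miRNA, was at 86636, 74669, 105846, 127432 and 128671 CPM in Alg1E and 96279, 91887, 91801, 104254 and 89798 CPM in N2 and was not called (log2 0.11, SE 0.16, edgeR adjusted p = 0.556), although it was called higher with total counts (0.41) and with both scalings from major arms (0.58 and 0.74). miR-58a-3p was not called either (log2 -0.29, SE 0.18, edgeR adjusted p = 0.196). miR-80-3p, of the same bantam-related family, was lower, at 36427 to 50854 CPM in Alg1E and 63839.6 to 79737 CPM in N2 (log2 -0.70, edgeR adjusted p = 0.00257), but not with the scalings from major arms. Their relative miR-81-3p was called by a narrow margin (log2 -0.39, edgeR adjusted p = 0.0422) and was not called in 12 of 16 settings, 2 of which turned its sign, to 0.078 and 0.24 with the scalings from major arms. The minor arms miR-58a-5p and miR-80-5p were higher, with log2 differences of 2.17 and 2.63.

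Of 6 heterochronic miRNAs, 2 were lower in Alg1E at these hours and 4 were not called. Of all 243 miRNAs tested 35% were lower, and of the 132 major arms 70 were. The median log2 difference of the 6 was -0.29, which became 0.0091 with total counts and 0.18 and 0.34 with the scalings from major arms. miR-241-5p, which acts with miR-48 and miR-84 at the passage from the second to the third larval stage, was at 408, 146, 315, 397 and 422 CPM in Alg1E, against 1680.1, 1906, 2060.5, 1700.3 and 1734 CPM in N2. The groups were well apart and the log2 difference was -2.51 (SE 0.28, edgeR adjusted p = 4.95e-05). It is the neighbour of mir-48, 1678 bases away on V, where mir-241 lies from 14366188 to 14366283 (- strand) outside protein-coding genes. miR-48-5p was at 12933, 13068, 11571, 14569 and 20759 CPM in Alg1E and 14292, 14833, 16027, 17406 and 14189.6 CPM in N2 and was not called (log2 -0.10, SE 0.18, edgeR adjusted p = 0.621). With factors from the major arms of hairpins listed with both arms miR-48-5p was higher (0.53).

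miR-84-5p was at 8947, 14188, 8686, 13610.2 and 15604 CPM in Alg1E and 17677, 18107, 19630.2, 19214 and 16247 CPM in N2. The highest Alg1E value lay just under the lowest N2 value, and the log2 difference of -0.61 (edgeR adjusted p = 0.0191) was not called without 26 h (-0.52) or without 28 h (-0.47), with total counts (-0.31) or with the scalings from major arms (-0.14 and 0.015). let-7-5p, which acts at the passage from larva to adult, was at 7931, 21229, 10906, 14971 and 15307 CPM in Alg1E and 16085, 15364, 15212, 14598 and 20703 CPM in N2. Its Alg1E values scattered on both sides of those of N2, with the lowest at 26 h and the highest at 27 h (log2 -0.29, SE 0.22, edgeR adjusted p = 0.279). lin-4-5p was at 23348, 31443, 17889, 17963 and 18671 CPM in Alg1E and 27549.6, 27817, 30621, 20526 and 25308 CPM in N2 (log2 -0.29, SE 0.17, edgeR adjusted p = 0.161), and its relative miR-237-5p had a log2 difference of -0.28 (edgeR adjusted p = 0.241). Neither was called over the 5 hours. Without the 27 h libraries both were, lin-4-5p at -0.30 (edgeR adjusted p = 0.0393) and miR-237-5p at -0.34 (edgeR adjusted p = 0.0249).

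Of the 6 minor arms of these hairpins, 5 were higher, as were 66 of all 96 minor arms tested. let-7-3p was at 2302, 1828, 1289, 1258 and 1160.4 CPM in Alg1E and 142, 93.7, 179, 439.7 and 587 CPM in N2 (log2 2.73, SE 0.51, edgeR adjusted p = 0.0011). The Alg1E levels were highest at 26 h and the N2 levels highest at 30 h. lin-4-3p (2.33), miR-48-3p (2.77), miR-84-3p (2.08) and miR-237-3p (3.38) were higher too, while miR-241-3p was not called (0.47, edgeR adjusted p = 0.0623), although it was with total counts (0.77) and the scalings from major arms (0.94 and 1.102). Relative to the major arm, the minor arm of let-7 stood at 13.1% ± 9.05 in Alg1E and 1.70% ± 1.13 in N2, and that of miR-241 at 56.6% ± 25.6 in Alg1E and 6.66% ± 1.52 in N2 (SD, n = 5).

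Of the 13 seed families listed, 3 held members called in both directions under TMM. In the let-7 family of 8, miR-793 was higher (log2 1.09, at 505 to 585 CPM in Alg1E and 214 to 311 CPM in N2), while miR-84-5p, miR-241-5p, miR-794-5p (-0.61) and miR-1821-3p (-1.27) were lower and 3 were not called. With the scalings from major arms 2 members were lower in either case and 1 and 3 higher, and the median of -0.45 became 0.022 and 0.18. The mir-44 family held 3 higher and 1 lower of 4 under all 5 scalings. miR-44-3p (0.61), miR-45-3p (0.61) and miR-61-3p (0.59) were higher, and miR-247-3p, described above, was lower. The ratio of miR-44-3p to miR-45-3p was 2.85 to 2.91 in all 10 libraries, so the separate values of these near-identical miRNAs are uncertain. In the mir-51 family miR-51-5p was higher (0.84), miR-52-5p and miR-54-3p (-0.51) were lower, and 3 of 6 were not called, with a median of -0.025 that was above 0 with the 4 other scalings. With the scalings from major arms neither decrease was called, and 3 and 4 of the 6 members were higher.

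Among all 132 major arms tested 70 were lower under TMM, at a median of -0.59, and the counts that follow are to be read beside that share. Other families held only lower and uncalled members under TMM. These were the mir-58 family with 3 of 4 lower (median -0.55) and the mir-64 family with 3 of 5 (median -0.52), yet with the scalings from major arms neither family had a call, at medians of -0.076 and 0.083 and of -0.047 and 0.11. The mir-75 family had 2 of 2 lower (miR-75-3p at -1.03 and miR-79-3p at -1.73), the mir-238 family 2 of 3 (median -0.82) and the mirtrons 2 of 4 (miR-62 at -1.54 and miR-1019-5p at -1.87, median -0.73), and these 3 medians stayed below 0 under all 5 scalings. The counts did not stay the same. With both scalings from major arms the mir-75 family had 1 lower and 0 higher (miR-75-3p not called), the mir-238 family 1 lower and 1 higher, and the mirtrons 2 lower and 2 higher (miR-1018 and miR-1020-3p). The miR-1018 hairpin, listed as a mirtron, lies outside protein-coding genes in the annotation used, so no host intron was found for it. miR-79-3p was at 5609, 2809, 5947, 7457 and 6130.2 CPM in Alg1E and 17069, 19997, 17242, 17919 and 16797 CPM in N2, with no overlap. In the mir-238 family, miR-239b-5p and, in the mir-35 family, miR-41-3p varied strongly from library to library in every group. The mir-72 family held 1 lower of 3, the mir-2 family 1 of 4, the mir-46 family 1 of 2 and the mir-251 family 1 of 2, with no member higher under TMM, at medians of -0.42, -0.059, -0.50 and -0.29 that became 0.21, 0.57, 0.12 and 0.34 with factors from the major arms of hairpins listed with both arms. With those factors 0 members of these 4 families were lower and 1, 2, 0 and 1 higher. Of the 2 lin-4 family members 0 were called. Of 7 miRNAs that act in ageing or stress, miR-239a-5p (-0.82), miR-239b-5p (-1.94) and miR-246-3p (-1.95) were lower and 4, among them miR-71-5p and miR-34-5p, were not called, at a median of -0.47 that became 0.15, with 2 higher and 2 lower, with factors from the major arms of hairpins listed with both arms. miR-239a-5p was not called with those factors (-0.195), with the other scaling from major arms (-0.35) or with total counts (-0.53).

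As a check of the label of whole animals, miRNAs that mark neurons, muscle and intestine were all detected in every library. miR-60-3p, made in the intestine, was at 15624, 7977, 12624, 18247 and 17761 CPM in Alg1E and 35819.9, 38999.6, 36199.9, 29689 and 30799 CPM in N2, and was lower (log2 -1.30, SE 0.24, edgeR adjusted p = 0.00103). In whole animals fewer cells of a type and less miRNA per cell cannot be told apart. Of 3 neuronal miRNAs, miR-124-3p was lower (-1.103, at 48.3 to 98.8 CPM in Alg1E and 134 to 213 CPM in N2), miR-791-3p was higher (0.89, edgeR adjusted p = 0.0468) and lsy-6-3p was not called (0.40). miR-124-3p and lsy-6-3p are major arms. miR-791-3p is a minor arm and was scarce, with a mean of 8.32 CPM over the 10 libraries. Of all 96 minor arms tested 66 were higher. With the scalings from major arms lsy-6-3p was higher as well (0.87 and 1.03), and with the second of them, from hairpins listed with both arms, miR-124-3p was not called (-0.48). Of the 8 members of the mir-35 family, which is abundant in embryos and the germline, miR-40-3p (-1.17) and miR-41-3p (-2.03) were lower and 6 were not called. Of all 132 major arms tested 70 were lower. The call of miR-41-3p was lost without 26 h (-1.56), without 27 h (-2.05) and with the scalings from major arms (-1.57 and -1.40), and with factors from hairpins listed with both arms 2 members of the family were higher and 1 lower. The median was -0.25, and it became 0.051, 0.22 and 0.38 with total counts and the scalings from major arms.

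**Figure D4:**
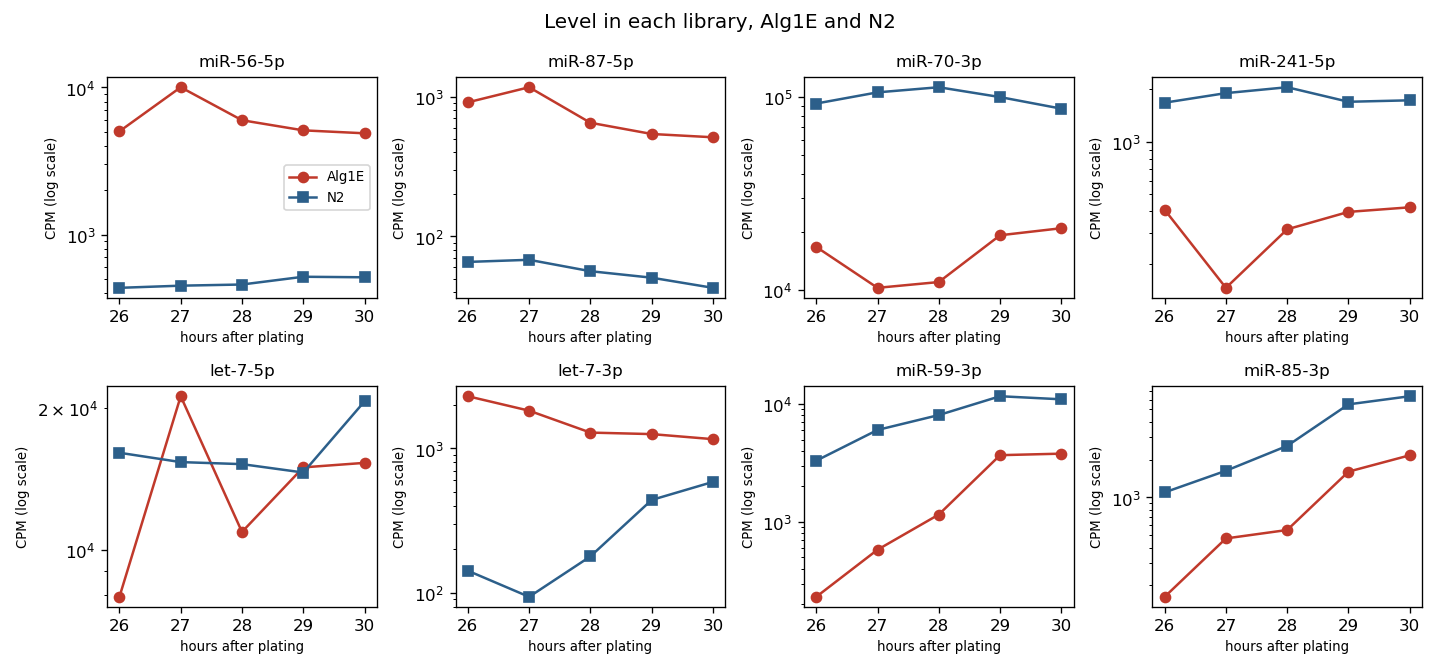
Level of 8 miRNAs (y axis, CPM after TMM, log scale) at each hour after plating (x axis) in Alg1E and N2, 1 point per library. miR-56-5p and miR-87-5p lie higher and miR-70-3p and miR-241-5p lower in Alg1E at every hour, let-7-5p crosses, let-7-3p draws closer, and miR-59-3p and miR-85-3p climb in both genotypes with Alg1E below N2.

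Several miRNAs climbed through these hours in both genotypes, with Alg1E below N2 at each hour. miR-59-3p was at 231, 581, 1155, 3682 and 3793 CPM in Alg1E, against 3305, 6025, 8061, 11645 and 10965 CPM in N2. The Alg1E levels at 29 and 30 h overlapped those of N2 at 26 h. The difference over the 5 hours was -2.64 on the log2 scale (SE 0.36, edgeR adjusted p = 0.000176), with a slope of 1.099 log2 per hour in Alg1E and 0.44 in N2. miR-85-3p was at 162, 473, 552, 1604 and 2163 CPM in Alg1E and 1098, 1630.2, 2569, 5492 and 6371 CPM in N2 (log2 -2.01, edgeR adjusted p = 3.82e-05). miR-246-3p, a miRNA tied to lifespan in adults, was at 13.3, 36.1, 70.6, 147 and 189 CPM in Alg1E and 109, 168, 265, 379 and 499 CPM in N2 (log2 -1.95, edgeR adjusted p = 0.000176).

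miR-357-3p and miR-358-3p come from hairpins 206 bases apart on V, from 8580542 to 8580651 and from 8580858 to 8580967 (- strand), opposite in orientation to symk-1, in 1 of whose introns they sit. miR-357-3p was at 5.56, 10.9, 17.8, 39.4 and 46.2 CPM in Alg1E and 45.0, 54.5, 107, 121 and 118 CPM in N2 (log2 -2.14, edgeR adjusted p = 0.000114). miR-358-3p was at 0, 0.616, 5.15, 20.2 and 9.98 CPM in Alg1E and 11.4, 16.4, 26.9, 30.8 and 37.9 CPM in N2 (log2 -2.40, edgeR adjusted p = 0.00438). Both were scarce in Alg1E at 26 h and present at 29 and 30 h. miR-5592-3p was at 0.855, 7.19, 26.5, 112 and 149 CPM in Alg1E and 49.3, 86.6, 163, 234 and 237 CPM in N2 (log2 -2.36, edgeR adjusted p = 0.00491).

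To see how far these falls depend on the hour each genotype was sampled at, Alg1E at 26 to 30 h was also set against N2 at 24 to 28 h, 2 h younger. The log2 difference was then -1.66 for miR-59-3p, -0.77 for miR-85-3p, -0.57 for miR-246-3p, -1.098 for miR-357-3p and -1.26 for miR-358-3p, each smaller in size and still called by edgeR. That of miR-5592-3p was -0.72 and no longer called (edgeR adjusted p = 0.0917). These miRNAs rose in N2 by 0.40 to 0.69 log2 per hour over 26 to 30 h, so younger N2 larvae shrink their falls whatever Alg1E does. miR-241-5p (-2.52), miR-70-3p (-2.72) and miR-799 (-3.67) were as low against the younger N2 larvae. Their slopes in N2 were small (-0.0082, -0.026 and -0.094). The outcome thus follows the course in N2 and does not tell kinds of fall apart. The number of calls was 162, of which 152 were shared with the comparison at equal hours.

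Within the 5 hours, few differences between the genotypes grew or shrank measurably. In simulated data the slope test called 1 of 50 slope differences of 1.19-fold per hour and 9 of 50 of 1.41-fold. Differences of that size could thus be missed here. The slope over 26 to 30 h differed for 5 of 243 miRNAs (2.06%), 2 with the higher slope in Alg1E (0.823%) and 3 with the lower (1.23%), by edgeR at an adjusted p under 0.05, and for 29 at an unadjusted p under 0.05. miR-5592-3p rose by 1.68 log2 per hour in Alg1E and 0.60 in N2 (difference 1.08, edgeR adjusted p = 0.0249). miR-235-5p had slopes of 0.13 in Alg1E and -0.46 in N2 (difference 0.60, edgeR adjusted p = 0.042). The other 3 were minor arms whose excess in Alg1E shrank. let-7-3p had a slope of -0.25 in Alg1E and 0.61 in N2 (difference -0.86, edgeR adjusted p = 0.0142). For miR-237-3p the slope difference was -0.89 and for miR-67-5p -0.48. None of the 5 was called without 27 h, without 28 h or without 29 h. Of the miRNAs named by their small p-values, miR-59-3p (edgeR adjusted p = 0.0584), miR-239a-3p, miR-59-5p, miR-42-5p and miR-244-3p did not pass. Within a genotype, 18 slopes were called in Alg1E (7.41%), with 12 rising (4.94%) and 6 falling (2.47%), and 10 in N2 (4.12%), with 8 rising (3.29%) and 2 falling (0.823%).

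The differences at 26 to 30 h were then set against those of the earlier hours, in 1 fit over the 26 libraries of both genotypes from 18 h on. At 26 to 30 h that fit called 160 miRNAs (65.8%), 77 higher (31.7%) and 83 lower (34.2%). At 21 to 25 h it called 160 (65.8%), 81 higher (33.3%) and 79 lower (32.5%), and at 18 to 20 h 140 (57.6%), 64 higher (26.3%) and 76 lower (31.3%). In all, 122 were called with the same sign in the later 2 windows. The difference of the differences itself between 26 to 30 h and 21 to 25 h passed for 0 of 243 (0%) by edgeR, with 64 at an unadjusted p under 0.05, a smallest adjusted p of 0.1025, and 1 higher and 1 lower call when no filter on low counts was used. The median change was -0.0088 over minor arms and -0.026 over major arms. In simulated data the test of this contrast called 20 of 50 changes of 2-fold, so changes of that size could be missed. The simulated spread was that of the 26 to 30 h libraries alone, so more could be missed if the earlier hours spread more.

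The miRNAs with the smallest p-values in that contrast are given as values, since none passed. let-7-5p had a log2 difference of -0.29 (SE 0.39) at 26 to 30 h, against -2.44 (SE 0.43) at 21 to 25 h, when its mean level was 3643 CPM in Alg1E and 11966 CPM in N2 (edgeR adjusted p of the change = 0.1025). miR-44-3p was at 0.61 against -0.43, miR-61-3p at 0.59 against -0.37, miR-790-5p at 1.05 against -0.012 and miR-74-5p at 2.62 against 1.26. In the other direction, miR-76-3p was at -1.58 against 0.048, the mirtron miR-62 at -1.54 against 0.0012, and miR-251 at -0.81 against 0.55. miR-79-3p (-1.73 against -0.44), miR-1020-5p (-1.67 against 0.95) and miR-1821-3p (-1.27 against -0.39) followed.

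At 26 to 30 h miR-76-3p was at 213, 98.4, 144, 167 and 170.2 CPM in Alg1E and 428, 564, 541, 444 and 354 CPM in N2, miR-62 at 1382, 568, 1543, 1666 and 1288 CPM in Alg1E and 3808, 4615, 3557, 3101 and 2994 CPM in N2, and miR-251 at 1427, 599, 994, 1039 and 1059 CPM in Alg1E and 1866, 2169, 1872, 1437 and 1458 CPM in N2. In each the groups did not overlap and the fall was called at these hours (edgeR adjusted p = 0.000492, 0.00139 and 0.0143), and none of the 3 was called at 21 to 25 h or at 18 to 20 h. The 3 were named for small p-values of the change from 21 to 25 h, which favours such a pattern. That change passed for 0 of 243 miRNAs, so falls limited to the late hours are not established. With total counts and the scalings from major arms the fall of miR-251 was not called (-0.51, -0.34 and -0.18), while those of miR-76-3p and miR-62 were.

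Against 18 to 20 h, 2 of 243 changes passed (0.823%), 1 in each direction (0.412% each). miR-85-3p did not differ measurably at 18 to 20 h, with mean levels of 11.4 CPM in Alg1E and 9.69 CPM in N2 (log2 0.19), and was lower at 26 to 30 h (log2 -2.01), a change of -2.21 (SE 0.32, edgeR adjusted p = 0.00135). miR-1022-5p was lower at 18 to 20 h (log2 -1.50) and not at 26 to 30 h (log2 0.18), a change of 1.68 (SE 0.33, edgeR adjusted p = 0.0169). Its levels at 26 to 30 h were 45.3, 46.0, 40.7, 24.2 and 22.1 CPM in Alg1E and 41.1, 35.3, 28.6, 24.8 and 24.9 CPM in N2, which overlapped. The call of miR-1022-5p was lost without 27 h (1.44, edgeR adjusted p = 0.0581) and without 28 h (1.59, edgeR adjusted p = 0.0596). miR-795-5p (1.07), miR-249-3p (0.96) and miR-254-3p (1.08) had the next smallest p-values among changes upward and did not pass.

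**Figure D5:**
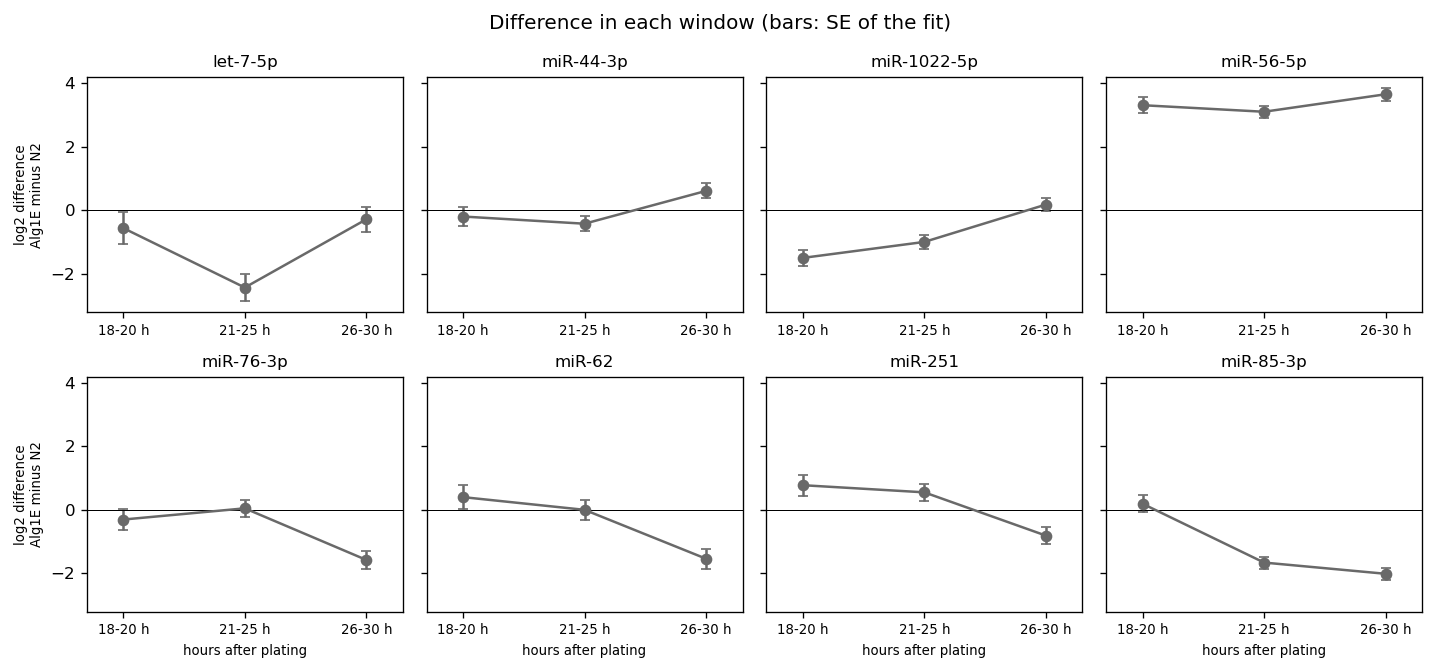
Log2 difference between Alg1E and N2 (y axis, Alg1E minus N2) in 3 windows of hours after plating (x axis) for 8 miRNAs, with the SE of the fit over 26 libraries as bars. let-7-5p dips at 21 to 25 h, miR-56-5p stays between 3.10 and 3.65, and miR-76-3p, miR-62 and miR-251 lie at -1.58, -1.54 and -0.81 at 26 to 30 h, while of the 8 changes from 18 to 20 h those of miR-1022-5p and miR-85-3p passed the test.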

How the data were processed

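The authors deposited 1 table of raw counts for each mature miRNA and library, as whole numbers and not normalized. Per the labels' protocols, the QIAseq miRNA Library Kit was used. The submitters' processing notes name HTSeq, SAMtools 1.9, Bowtie 1.2.2 and cutadapt 2.3, and the build ce11. Whether strand and the kit's molecular identifiers were used, and the trimming and mapping settings, is not given in these sources. PCR copies may count as reads, and near-identical miRNAs may share reads.

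The 5 summary entries of HTSeq were left out of library sizes, reads with no feature averaging 49.9% in Alg1E and 44.8% in N2. edgeR 4.0.16 (R 4.3.3) tested counts with the quasi-likelihood test on TMM-scaled libraries, with hour as a factor pairing libraries by the labelled hour, over the 243 miRNAs that filterByExpr kept across all 39 libraries. Slopes used hour as a number centred at 28 h, and windows used interaction terms over 26 libraries. Arm ratios on the log2 scale, with a prior count of 0.5, were tested with limma 3.58.1. DESeq2 1.42.0 was an alternative test, with other scalings, filters, designs, hour matching, and each hour left out. Tests were two-sided with Benjamini-Hochberg adjustment, and the scripts were tested on simulated data.

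Named miRNAs are the 10 largest rises and falls past the threshold of 0.05 with at least 10 CPM and 1 direction at 5 of 5 hours, the 6 largest rises and up to 4 falls in arm ratio, hairpins whose minor arm overtakes the major arm, the smallest p-values of each contrast (6 a direction for windows, 5 for slopes), the other arms, the heterochronic miRNAs, the mir-35 family and the 5 most abundant. Members and lists were chosen with earlier results of these data known. Coordinates are RefSeq's for WBcel235, the assembly of ce11, found for 132 of 147 hairpins.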

Additional observations from a re-analysis of the deposited data

Results flagged for a closer look

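Of 82 groups of 5 libraries checked among the named miRNAs, 6 held a library whose gap to the nearest other library, divided by the range of the group, exceeded Dixon's critical value of 0.71. By chance about 5% of such groups do so. Of the 6, 4 were the Alg1E library of 27 h. In it miR-56-5p stood at 10036 CPM, against 4879 to 5987 in the other 4 Alg1E libraries, and miR-237-5p at 4459.7 CPM, against 2264 to 2474. miR-36-3p stood at 763 CPM, against 329 to 446, and miR-247-3p at 41.3 CPM, against 136 to 159.9. In the N2 library of 30 h, let-7-5p stood at 20703 CPM, against 14598 to 16085 in the other 4 N2 libraries, and miR-40-3p at 116 CPM, against 85.4 to 93.9.

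The difference between Alg1E and N2 itself differed between 26 to 30 h and 18 to 20 h for 2 miRNAs, by edgeR's test of the interaction. That of miR-1022-5p was 1.68 log2 higher at the later hours, and that of miR-85-3p was lower by 2.21 log2, a change of -2.21.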

How the results depend on the processing

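The 10 largest rises and the arm ratios of miR-360, miR-70, miR-87, miR-60, miR-235 and miR-73 were called in the same direction under every setting run for them, and of the 10 largest falls miR-5592-3p alone lost its call, without the hour in the model (-1.40) and against N2 2 h younger (-0.72). The number of calls was 144 to 169 without 1 hour. TMM from major and single-arm miRNAs gave 50 lower, and TMM from paired major arms 116 higher and 45 lower. Small differences changed sign. With total counts lin-4-5p was at 0.0054, let-7-5p 0.013, miR-48-5p 0.20, miR-237-5p 0.020, miR-35-3p 0.17, miR-37-3p 0.24, miR-39-3p 0.14, miR-42-3p 0.15 and miR-58a-3p 0.011. With TMM from major and single-arm miRNAs lin-4-5p was at 0.18, let-7-5p 0.18, miR-48-5p 0.37, miR-237-5p 0.19, miR-35-3p 0.34, miR-36-3p 0.13, miR-37-3p 0.41, miR-38-3p 0.081, miR-39-3p 0.31, miR-42-3p 0.32, miR-58a-3p 0.18 and miR-81-3p 0.078. With TMM from paired major arms lin-4-5p was at 0.33, let-7-5p 0.34, miR-48-5p 0.53, miR-84-5p 0.015, miR-237-5p 0.35, miR-35-3p 0.50, miR-36-3p 0.29, miR-37-3p 0.57, miR-38-3p 0.24, miR-39-3p 0.47, miR-42-3p 0.48, miR-58a-3p 0.34 and miR-81-3p 0.24. With no filter, which moved the median of all miRNAs by 0.15, miR-48-5p was at 0.044, miR-35-3p 0.021 and miR-37-3p 0.090, and with the filter on these 10 libraries miR-37-3p was at 0.018. Leaving out 1 hour, miR-48-5p ranged from -0.26 to 0.033, miR-42-3p from -0.32 to 0.011 and miR-37-3p from -0.067 to 0.032.

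Hairpins with a lower arm ratio numbered 2 with a prior count of 5 and 2 with no replicate block (hour left out), and the median log2 difference of the ratio was 2.31 with at least 100 reads per arm, against 2.004. Slope differences were the least stable. Those called higher numbered 0 with RLE factors and 1 each with TMM from paired major arms and with no filter, and those lower 5 with TMM from paired major arms. Without 1 hour they ranged from 0 to 8 higher and 0 to 5 lower. Changes from 18 to 20 h gave 0 higher with total counts and with TMM from paired major arms, 7 lower with TMM from major and single-arm miRNAs, 5 lower with no filter, and 0 to 1 higher without 1 hour. Changes from 21 to 25 h gave 1 higher and 1 lower with no filter. The cause of these shifts was not tested. At 10 CPM a miRNA has over 10 reads in every library, and below that counting error weighs more.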

Other observations

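3 major arms, miR-360-5p, miR-41-3p and miR-239b-5p, which were chosen after their values were seen, varied strongly between libraries of neighbouring hours. In CPM of total miRNA reads, without TMM, miR-41-3p ranged from 19.5 to 157 in Alg1E and from 91.0 to 312 in N2 at 26 to 30 h, and from 16.5 to 327 in Alg1E and from 49.5 to 538 in N2 at 18 to 25 h. miR-239b-5p ranged from 40.8 to 349 in Alg1E and from 228 to 501.7 in N2 at 26 to 30 h, and from 60.8 to 1269 in Alg1E and from 48.6 to 842 in N2 at 18 to 25 h. At 18 to 25 h the median was higher in Alg1E for miR-41-3p (178 against 97.8 in N2) and miR-239b-5p (337 against 177). At 26 to 30 h it was lower in Alg1E (67.2 against 213, and 121 against 401). At 26 to 30 h all 3 were highest at 28 h among the Alg1E libraries and lowest or next to lowest at 28 h among the N2 libraries.

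miR-51-5p, the member of the mir-51 family that was higher, was at 17215, 37142, 13400.2, 11516 and 10969.8 CPM in Alg1E and 11489.7, 10207, 9261, 5879 and 8917 CPM in N2, with the Alg1E library of 27 h far above the rest. Its minor arm miR-51-3p was higher as well, at 1297, 738, 983, 1345 and 1469.8 CPM in Alg1E and 201, 234, 263, 283 and 246 CPM in N2 (log2 2.22, edgeR adjusted p = 2.23e-05), so this hairpin is 1 of the 5 in which both arms were higher.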
